A study of Mus musculus with 2 samples.

Results

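The genes that carry proteins into mitochondria, fold the inner membrane into cristae, and fuse, divide and maintain the organelle were followed in 3T3-L1 adipocytes with and without DF, a multi-herbal preparation. Genes entered the set by symbol, in a choice made with earlier results of these data known: 14 Timm genes, 11 Tomm genes, 8 Chchd genes and 19 named genes, 52 of the 24421 genes listed. 3T3-L1 is a mouse preadipocyte cell line that accumulates lipid under a hormonal cocktail. The labels give its strain background as C57BL/6, which was not checked here, and its passages as 10 to 13. There was 1 control library from adipocytes that received no preparation and 1 library from adipocytes kept in DF (DF-GA70 in its title) until harvest. Both had been held for 2 days past confluence, then induced for 2 days with insulin (1 µg/mL), dexamethasone (0.25 µM) and the phosphodiesterase inhibitor IBMX (0.5 mM) in 10% fetal bovine serum, and then maintained in insulin and serum. Neither how much DF was added nor when the cells were harvested is stated in the labels. Because each group holds 1 library, no difference has a replicate check, and no test and no p-value is given.

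Nearly all mitochondrial proteins are made in the cytosol and pass the outer membrane through the TOM complex. From there the TIM23 complex and its motor draw in proteins with a cleavable presequence, small TIM chaperones escort carrier proteins to the TIM22 complex, and the SAM complex inserts barrel proteins into the outer membrane. The MICOS complex holds cristae junctions, mitofusins and OPA1 fuse the membranes, and DRP1 with its outer membrane receptors divides them. Mitochondrial mass is known to increase when 3T3-L1 cells become adipocytes.

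The 60 bases before the annotated start are shown for 8 members, because these genes include the partner pairs that are compared below and members with and without the most frequent motif of the set. They come from the RefSeq promoter table (GRCm38.p6, the assembly that mm10 names), which held 47 of the 52 members with 55 promoters of 250 bases before and 50 after the start. The bases run 5′ to 3′ on the strand of the gene. Capitals mark the letters CCGGAAG or its reverse complement CTTCCGG, a form of the ETS element that the GABPA protein recognises, and, in Timm9, the E-box letters CACGTG.
Timm10, chr2:84826961-84827020, plus strand: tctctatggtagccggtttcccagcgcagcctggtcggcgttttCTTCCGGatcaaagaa
Timm9, chr12:71136676-71136735, minus strand: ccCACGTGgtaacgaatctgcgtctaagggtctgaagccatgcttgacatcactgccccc
Timm8a1, chrX:134541671-134541730, minus strand: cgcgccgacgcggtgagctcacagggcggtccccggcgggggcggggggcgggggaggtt
Timm8b, chr9:50603841-50603900, plus strand: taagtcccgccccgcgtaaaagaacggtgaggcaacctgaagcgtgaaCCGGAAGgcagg
Pmpca, chr2:26389288-26389347, plus strand: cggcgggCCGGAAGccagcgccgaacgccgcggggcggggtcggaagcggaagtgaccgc
Pmpcb, chr5:21737100-21737159, plus strand: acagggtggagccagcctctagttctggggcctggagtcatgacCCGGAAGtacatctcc
Tomm22, chr15:79670808-79670867, plus strand: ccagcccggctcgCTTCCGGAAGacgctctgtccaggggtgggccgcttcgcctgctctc
Tfam, chr10:71238045-71238104, minus strand: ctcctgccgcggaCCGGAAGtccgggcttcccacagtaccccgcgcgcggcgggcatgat

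The GABPA letters were in 24 of the 55 promoters of the set (43.6%), which belong to 22 genes. The same letters were in 18.8% of 6983 promoters of 5240 examined genes found in the table and in 8.86% of all 32851 promoters of the table. In Tomm22, which encodes the central receptor of the TOM complex, matches on both strands overlapped. The letters GCATGCGC, part of the element bound by NRF1, were in 3 promoters of the set (5.45%, against 5.61% for the genes examined). The E-box letters were in 9 (16.4% against 10.6%), the YY1 letters AAGATGGC in 2 (3.64% against 5.01%), and the ERRA letters TCAAGGTCA in 1, that of Timm8b (1.82% against 0.358%). Both strands were searched in every case, and the GABPA and YY1 letters can share AAG. These are counts of letters, not of bound sites.

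Values are on the deposited log2 scale, and differences are DF minus control on that scale. The sequencing depth is unknown, so no counting interval was computed. The sorted values of the files nearly coincide, with 97.9% of 12337 ranks within 0.1 log2 units. A value therefore stands largely for a rank in its library, and each fold below for a shift of rank on a common scale. The top 140 values are identical, and Chchd2 and Immt are the 2 members there. A level floor was set at 8.18, the median over every value above zero. A gene was examined when at least 1 library reached this floor and counted when the libraries differed by at least 1.5-fold (0.58 log2 units). Of the 10 adipocyte markers checked, 10 were above 0 in both libraries, and their summed linear value was 1.13-fold higher with DF. Lpl, the highest of them, was at 17.55 in both libraries. Of these 10 markers, 1 was counted higher (Cidec, 14.48 and 15.15, 1.59-fold) and 0 lower. Over all genes examined, 10.2% were counted higher and 10.9% lower. Among 8 preadipocyte or fibroblast markers, 7 were above 0 in both and Cd34 was listed at 0 in both. Of the 6 examined, 5 were counted lower with DF and 0 higher, beside those same shares over all genes examined. The summed value of the 8 was 2.23-fold lower, led by Dlk1 (16.55 in the control and 15.10 with DF). The part of these marker differences in the results below was not tested. The 4 endothelial, 5 macrophage and 4 skeletal muscle markers were all below the floor. In such bulk samples, fewer cells of a type and less RNA per cell cannot be told apart.

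Most genes of the set stood at similar values in the 2 libraries. Of the 52, 50 were above 0 in both libraries, Timm8a2 was listed at 0 in both, and the antisense transcript Tomm6os was at 4.63 in the control and listed at 0 with DF. In all, 41 were examined and 9 lay above 0 but below the floor. Tomm40l, Timm10 and Timm8a1 were counted higher with DF, and Pmpca and Mff lower, while 36 lay within 1.5-fold. Thus 3 of 41 were higher (7.32%) and 2 lower (4.88%), where 10.2% of all 6761 genes examined were higher and 10.9% lower. No examined member differed by 2-fold, against 5.77% of all genes examined in either direction. The median difference was 0.09 over the 50 members (28 above zero, 22 below) and 0.04 over all 11744 genes above 0 in both libraries. Of the members 56% had a difference above zero, and of all those genes 52.3%.

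**Figure D1:**
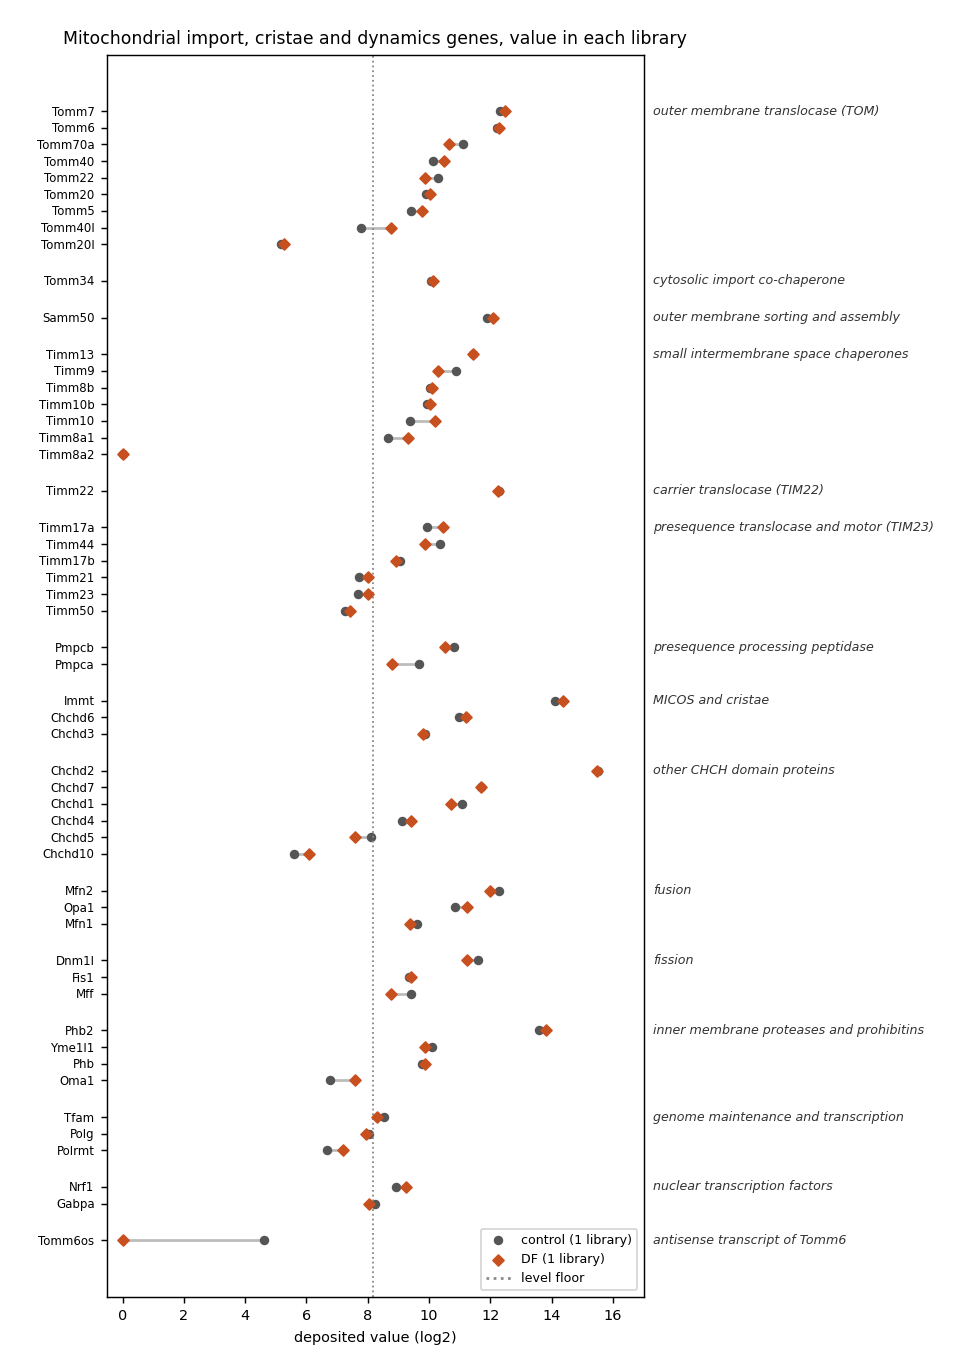
Deposited log2 value of each of the 52 genes in the control library (circles) and the DF library (diamonds), grouped by role, with the level floor of 8.18 as a dotted line. Most pairs of symbols nearly touch; Tomm40l, Timm10, Timm8a1, Pmpca and Mff are the examined pairs that are furthest apart.

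The level of a gene bears on these counts. Below a mean level of 8, 92.7% of 206 genes examined differed by 1.5-fold in either direction, and 0 members lay there. Those genes passed the floor through 1 library only and are part of the shares over all genes examined. Between mean levels of 8 and 9, 27.2% of all genes examined differed by 1.5-fold in either direction, and 2 of 5 members did. From 9 to 10 the share was 19.9%, with 3 of 13 members counted: Timm10, Pmpca and Mff. From 10 upward it was 13.4%, and 0 of 23 members were counted. Over the members examined the differences had an SD of 0.38 across genes, and over all genes examined 0.53, which is not matched for level.

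**Figure D2:**
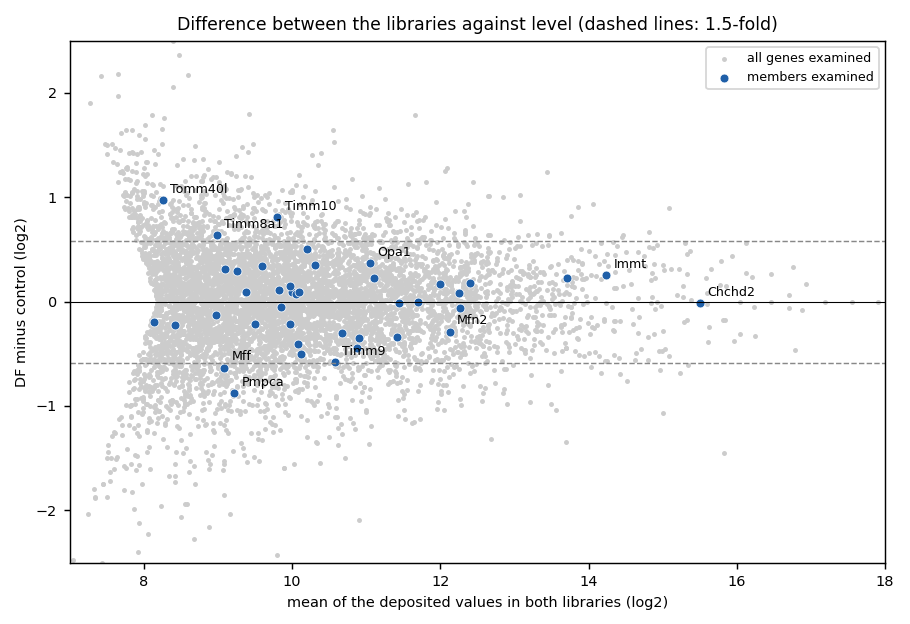
Difference DF minus control (log2) against the mean deposited value (log2) for all genes examined (grey; 16 genes lie outside the axes) and for the 41 members examined (blue), with dashed lines at 1.5-fold. The members sit inside the grey cloud, with 3 above the upper line and 2 below the lower one.

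The outer membrane translocase genes were near equal, apart from Tomm40l. Tomm40l, which encodes a homologue of the channel protein, had a control value of 7.77 and a DF value of 8.74, which is 1.97-fold higher. It passed the floor only through the DF library, so it was examined because it was high there. On chromosome 1, at 171216011 to 171222514 (minus strand), its 3' end meets Nr1i3 on the plus strand, a gene listed at 0 in both libraries. Tomm40, the channel itself, was at 10.13 and 10.48, 1.28-fold higher. The presequence receptor gene Tomm20 was at 9.89 and 10.05. Tomm70a, the receptor for carrier precursors, was at 11.10 and 10.65, 1.36-fold lower, and Tomm22 at 10.28 and 9.88, 1.32-fold lower. Both members with lower values in this complex are receptor genes and were within 1.5-fold, but the receptor gene Tomm20 was 1.11-fold higher. The small subunit genes Tomm5, Tomm6 and Tomm7, which stabilise the complex, were 1.27-fold, 1.06-fold and 1.13-fold higher; Tomm7 had the highest value of the group, at 12.31 and 12.49. The 3' end of Tomm6 shares 93 bases with Usp49 on the other strand (6.54 and 6.69), and where reads of these bases were assigned is unknown here. Tomm20l lay below the floor at 5.18 and 5.27. Among the 9 genes the median difference was 0.15, with 7 above zero, where 52.3% of all genes above 0 in both libraries had a positive difference.

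At the cytosolic side and in the outer membrane, both remaining members were level. Tomm34, a cytosolic co-chaperone of imported precursors, was at 10.05 and 10.14. Samm50, the core of the SAM complex, was at 11.91 and 12.08, 1.13-fold higher.

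Among the partner pairs picked for comparison, the widest contrast was in the small TIM chaperone genes. Not every pair within a complex was compared: Tomm40l (0.97) and Tomm70a (-0.45) of the TOM group were not. No share over pairs of other genes was computed. Timm10 and Timm9 encode the subunits of 1 hexamer that carries hydrophobic precursors across the intermembrane space. The Timm10 value was 9.39 for the control and 10.21 for DF, or 1.76-fold higher. Timm9 was at 10.87 and 10.29, a difference of -0.581, just inside the limit of 0.585. The Timm10 to Timm9 ratio was thus 2.63-fold higher in the DF library than in the control. Timm10 (chromosome 2, 84826997 to 84830213, plus strand) overlaps no other annotated gene considered. Timm9 (chromosome 12, 71123173 to 71136684, minus strand) overlaps the end of Tomm20l on the other strand (5.18 and 5.27).

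Timm8a1, the mouse counterpart of the gene mutated in human deafness-dystonia syndrome, was at 8.67 and 9.31, 1.55-fold higher. With the larger of 2 pseudocounts its difference was 0.51, under the limit of 0.58, so it was no longer counted. Its partner in a second hexamer, Timm13, was at 11.45 and 11.43. Timm8b, the paralogue of Timm8a1, was at 10.02 and 10.09, and the Timm8a1 to Timm8b ratio was 1.48-fold higher with DF. The 3' end of Timm8b shares 81 bases with Nkapd1 on the other strand, and where reads of these bases were assigned is unknown here. On the genome Timm8a1 occupies chromosome X, 134537256 to 134541865, minus strand. Timm10b, which docks the chaperones at the TIM22 complex, was at 9.95 and 10.04, and Timm22, the carrier channel, at 12.30 and 12.24. Of the 6 small TIM genes examined, 2 were higher and 0 lower by 1.5-fold, where 10.2% of all genes examined were higher and 10.9% lower. Both counted genes lie at mean levels where such differences were more frequent among all genes (27.2% in either direction from 8 to 9 and 19.9% from 9 to 10).

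In the TIM23 complex, the paralogues of the channel subunit went apart, with neither counted. Timm17a was at 9.95 and 10.45, 1.41-fold higher, and Timm17b at 9.04 and 8.92, 1.09-fold lower. Timm44, which tethers the import motor to the channel, was at 10.37 and 9.87, 1.42-fold lower. Timm23, the channel, was at 7.67 and 8.004, Timm21 at 7.70 and 8.01, and the presequence receptor Timm50 at 7.26 and 7.42; these lay below the floor in both libraries. Timm23 has near-identical copies such as Gm10273 (a match of 475 bases), and no source used here says where reads common to such copies were assigned.

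Both subunit genes of the mitochondrial processing peptidase, which removes presequences in the matrix, had lower values with DF. Pmpca, the alpha subunit, went from a control value of 9.66 to 8.78 with DF, a 1.84-fold lower value. Pmpcb, the catalytic beta subunit, was at 10.82 and 10.52, 1.24-fold lower. The last 500 bases of the longest Pmpca transcript lie within Inpp5e on the other strand, and Inpp5e was at 10.19 and 9.08, a difference of -1.11. The strand setting of the read counter is unknown here, so reads of Pmpca and Inpp5e cannot be told apart, and the part of Inpp5e in the Pmpca difference was not tested. Pmpca occupies chromosome 2, 26389339 to 26397122 (plus strand).

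The MICOS genes of the set were near equal. Immt, which encodes the core subunit mitofilin, was at 14.11 and 14.36, 1.19-fold higher, with a rank of 124 in the control and 102 with DF. Chchd6 was at 10.99 and 11.22, 1.17-fold higher, and Chchd3 at 9.87 and 9.82. Of the other MICOS genes, Apoo was counted, at 8.88 and 9.69, 1.76-fold higher; it has a near-identical copy, Apoo-ps, and where reads common to both were assigned is unknown here. Minos1 (Micos10) was at 12.21 and 12.77, a difference of 0.56, Apool lay below the floor at 6.20 and 6.76, and 2410015M20Rik (Micos13 in RefSeq) was at 11.89 and 11.83. Over these 7 genes the differences ran from -0.06 to 0.81, with 5 above zero and a median of 0.26. Of all genes above 0 in both libraries, 52.3% had a positive difference. Dnajc11, which encodes a protein that associates with MICOS and SAM, was at 8.45 and 9.10, 1.57-fold higher.

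The other CHCH domain genes, whose products carry paired cysteine motifs, were within 1.5-fold where examined. Chchd2 had the highest value of the whole set, 15.51 and 15.49, at rank 35 and 36; it has near-identical copies, among them Chchd2-ps. Chchd7 was at 11.70 in both libraries. Chchd4, the oxidoreductase that folds such proteins in the intermembrane space, was at 9.10 and 9.40, 1.23-fold higher. Chchd1, a component of the mitochondrial ribosome, was at 11.07 and 10.72, 1.28-fold lower. Chchd5 (8.11 and 7.58) and Chchd10 (5.59 and 6.09) lay below the floor.

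**Figure D3:**
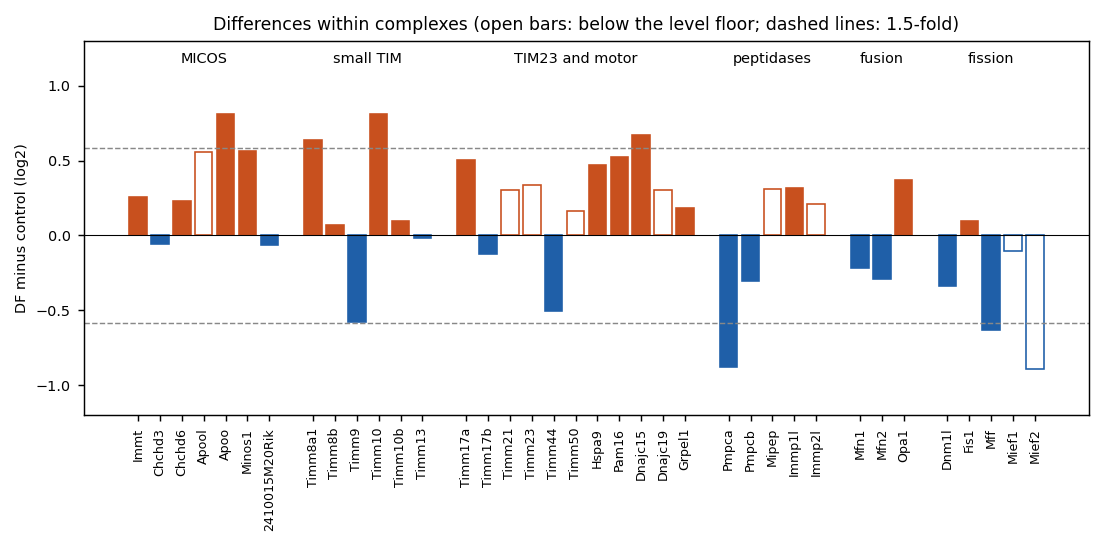
Difference DF minus control (log2) of each gene, by complex, including partners from outside the symbol rule; filled bars are genes examined, open bars lie below the level floor, and dashed lines mark 1.5-fold. Timm10 (0.81) and Timm9 (-0.58) stand on opposite sides of zero, and Pmpca (-0.88) is the lowest examined bar.

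Among the set's genes of membrane fusion and division, only Mff was counted, and it was not counted with the larger pseudocount. Mff, an outer membrane receptor for DRP1, had a control value of 9.40 and a DF value of 8.77, which is 1.55-fold lower. On chromosome 1, at 82724890 to 82752394 (plus strand), its start, not its 3' end, overlaps C430014B12Rik. Dnm1l, which encodes DRP1, was at 11.59 and 11.25, 1.26-fold lower, and Fis1, another outer membrane protein of fission, was at 9.33 and 9.43. The mitofusin genes had slightly lower values with DF: Mfn2 was at 12.27 and 11.98, 1.22-fold lower, and Mfn1 at 9.61 and 9.39, 1.16-fold lower. Opa1, the inner membrane fusion protein, was at 10.86 and 11.23, 1.29-fold higher. Outer membrane fusion genes and the inner membrane gene thus had differences of opposite sign, all within 1.5-fold.

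The proteases that cleave OPA1 and the prohibitins that scaffold the inner membrane were not counted. Yme1l1 was at 10.08 and 9.87, 1.16-fold lower. Oma1, the stress-activated protease, was at 6.78 and 7.59, 1.76-fold higher on values below the floor in both libraries. Phb2 was at 13.60 and 13.82 and Phb at 9.77 and 9.88, 1.17-fold and 1.08-fold higher.

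The examined genes of the set that serve mitochondrial DNA upkeep or its nuclear regulation (Tfam, Nrf1 and Gabpa) lay within 1.5-fold. Tfam, which packages mitochondrial DNA and starts its transcription, was at 8.53 and 8.31, 1.17-fold lower. Polg, the DNA polymerase, was at 8.03 and 7.94 and Polrmt, the RNA polymerase, at 6.66 and 7.19, both below the floor. Nrf1, a regulator of nuclear genes for mitochondrial proteins, was at 8.94 and 9.25, 1.24-fold higher. Gabpa, the DNA-binding subunit of the other such factor, was at 8.23 and 8.04, 1.14-fold lower, and was examined through the control library only. Gabpa overlaps Atp5j on the other strand (11.17 and 10.71). Of the members with the GABPA letters, 21 were above 0 in both libraries, with a median difference of -0.09. For 24 members without them it was 0.16, and for all 11744 genes above 0 in both libraries 0.04. The same split was not computed over all genes, and no link between the letters and these medians was tested. Of 17 examined with the letters 1 was higher and 1 lower by 1.5-fold, and of 20 examined without them 1 was higher and 1 lower, against 10.2% and 10.9% of all genes examined. Tomm40l, Tomm7, Chchd2, Chchd7 and Timm21 are not in the promoter table and so are in neither group.

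A further 75 genes of the same processes, outside the symbol rule, were counted in the same way. Of 47 examined, 6 were higher and 1 lower by 1.5-fold (12.8% and 2.13%, against 10.2% and 10.9% of all genes examined), and the median difference of 72 genes was 0.18. Apart from Apoo and Dnajc11, the genes counted higher were Dnajc15, an import motor co-chaperone (9.64 and 10.31, 1.59-fold), Spg7, a subunit of the inner membrane AAA protease (7.77 and 8.44, 1.59-fold), Lig3, the mitochondrial DNA ligase (9.76 and 10.40, 1.55-fold), and Esrra, a nuclear receptor that drives mitochondrial genes (10.24 and 10.88, 1.56-fold). Mterf4, which serves mitochondrial ribosome assembly, was 1.51-fold lower (10.91 and 10.32). Spg7 passed the floor only through the DF library and overlaps Gm20388, and Lig3, Esrra and Mterf4 overlap another coding gene.

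Other mitochondrial gene groups were counted by the same rule, and with 1 library per group no difference between them and the import and dynamics genes could be tested. The shares over all genes examined were 10.2% higher and 10.9% lower. Respiratory complex I genes were higher in 3 of 38 examined (7.89%, close to the 7.32% of the import and dynamics genes) and lower in 0, with a median of 0.10 over 45 genes. Cytochrome c oxidase and ATP synthase genes were higher in 7 of 28 (25%) and lower in 0, with a median of 0.26 over 31. Mitochondrial ribosomal protein genes were higher in 16 of 64 (25%) and lower in 3 (4.69%), with a median of 0.18 over 77.

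**Figure D4:**
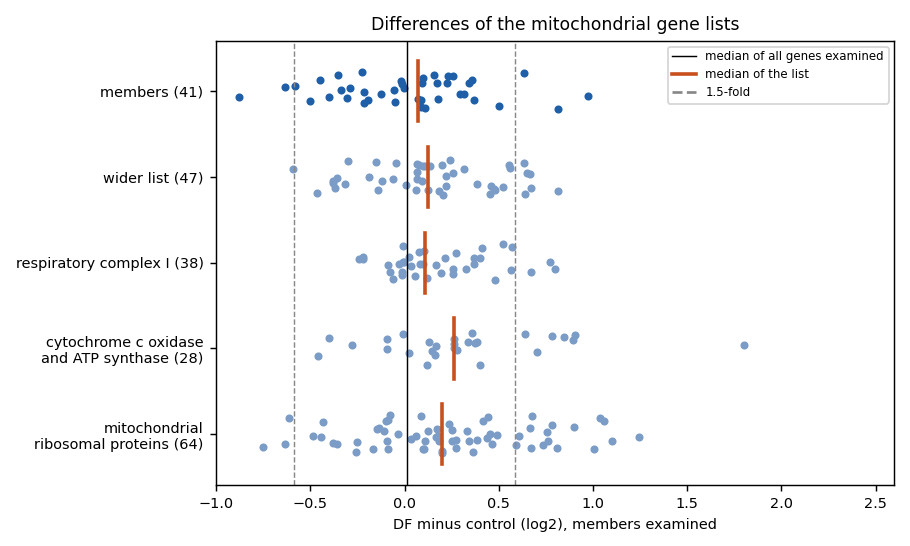
Difference DF minus control (log2) of each examined gene (points) in the set, in the 75 further genes and in 3 other mitochondrial groups, with the number examined in parentheses; orange bars are the medians of the points, the black line the median of all genes examined (0.01) and dashed lines 1.5-fold. The set is centred at 0.07 and spreads to both sides, while the oxidase and ATP synthase points lie mostly to the right.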

How the data were processed

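Messenger RNA was measured in 1 control and 1 DF library of 3T3-L1 adipocytes. Per the labels' protocols, 500 ng of total RNA per sample went into a Lexogen 3' end library, read as single ends of 75 nt. The authors deposited 1 log2 value per gene symbol. Bowtie2, edgeR and mm10 are named in the submitters' processing notes; no source used here states the versions, read counter, strand setting or normalization. From the values, both files appear brought to 1 common distribution (97.9% of 12337 ranks within 0.1 log2 units), which removes differences in total output. Linear values under 1000 lie on a grid of 1/8 (100% within 0.001), so they may draw on libraries not analysed here.

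Differences are DF minus control, with no pseudocount. The named members were each counted member, the one of highest level in each role and small groups in full. Positions and overlaps come from GENCODE vM21 (GRCm38), as genes on either strand that share bases. Near-identical copies were matches of at least 75 bases at 95% identity to the last 500 bases of the longest transcript (BLAST 2.17.0). The counting rule was run on the control values with known folds put in and no noise, which checks the code only. The other mitochondrial groups were symbols starting with Nduf, Cox4 to Cox8 or Atp5, and Mrpl or Mrps with a digit. The members and lists were chosen with earlier results of these data known. Python 3.11.15 and pandas 2.3.3 were used. Protein sequences were not used here.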

Additional observations from a re-analysis of the deposited data

How the results depend on the processing

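No paired analysis was possible because each group holds 1 library, and for the same reason no replicate could be left out. A count was taken as unaffected within 1.5 times, and a median within 0.1 log2 units. The medians of the 52 members (0.07 to 0.16) and of the 75 further genes (0.12 to 0.18) stayed within that tolerance under all alternatives tried for them. For the members the tolerance exceeds the median itself (0.09), so a fall to 0 would also have passed. Their median was 0.16 without genes that overlap another gene or have a near-identical copy. At 2-fold, 0 members and 0 of the further genes were counted higher, and 0 and 0 lower. With the larger of 2 pseudocounts, 1 member was lower (Pmpca, with Mff lost), 2 members were higher (Timm10 and Tomm40l, with Timm8a1 lost), and 3 further genes were higher and 0 lower; with the smaller (32), 0 further genes were lower. Without genes that overlap another gene or have a near-identical copy, 0 members were lower, since Pmpca and Mff are both left out, and 2 further genes were higher (Apoo, Spg7, Lig3 and Esrra are left out) and 0 lower. With no level floor, 12 of 72 further genes were higher and 6 lower. The share of all genes was computed for the main rule and for 2-fold only, so these changed counts have no share to be read against. Subtracting the median of all genes examined (0.01) added Timm9 to the members counted lower, making 3. Requiring the floor in both libraries removed Tomm40l, and dropping it added Oma1. Of 144 single-gene differences under centring and both pseudocounts, 136 moved by under 0.1. Centring shifts every difference by the same 0.01, so that part was fixed in advance. The same pseudocount in both libraries cannot turn a sign, and a shift of 0.01 cannot turn that of a counted gene. Signs were therefore no check. Unknown depth and 1 library per group limit every value, most for genes near the floor.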

Other observations

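Genes of mitochondrial transcription and DNA replication outside the symbol rule were spread widely at low values. Mterf1a, which encodes a mitochondrial transcription termination factor, stood at 8.06 (control) and 3.07 (DF), a difference of -4.99 and the lowest of all 11744 genes above 0 in both libraries. Its near-identical copy Mterf1b was at 5.69 and 3.29. Tefm, the mitochondrial transcription elongation factor, was at 4.21 and 6.72, and Polg2, the accessory subunit of the mitochondrial DNA polymerase, at 5.67 and 7.38. Each of these genes lay below the level floor in both libraries, and they were chosen after their values were seen.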
